A study of Mus musculus with 6 samples.

Results

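Interferon-stimulated genes were followed as a set of 48 listed members among the 38216 gene symbols of the deposited table. The members were listed by symbol, and the list was drawn up with earlier results of these data known. All 48 were in the table and 47 of them passed the filter on low values, which asked for 2 or more of the 6 libraries with 1 TPM or more. The member left out by the filter was Ifitm1, listed at 0.39 TPM in ACT replicate 1, at 0.83 TPM in N replicate 1 and at 0 in the other libraries. By role the list held 3 IFIT genes, 4 genes of the ISG15 system, 9 other antiviral effectors, Mx1, 5 OAS genes, 3 interferon regulatory factors, 4 nucleic acid sensors, 3 genes of the PARP and DTX3L group, 4 membrane restriction factors, 6 guanylate-binding proteins (GBP) and 6 immunity-related GTPases (IRG).

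The cells were CD4+ T cells sorted by flow cytometry from spleen. The mice were C57BL/6 on postnatal day 28 and carried the IL21-VFP reporter, in which cells transcribing the cytokine gene Il21 fluoresce. The ACT IL21 pool was VFP+ICOS+, the ACT pool was VFP-ICOS+ and the N pool was VFP-ICOS-, where ICOS is a costimulatory receptor displayed by activated T cells. Strain, age, tissue, reporter and the CD4+ gate were shared by all 3 pools, and each pool was sequenced as 2 libraries. Whether the 2 libraries of 1 pool stem from different mice is not stated, so the p-values cover only the spread between libraries, and that spread may be technical.

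Interferons bind receptors that activate JAK kinases and STAT factors. Type I interferons act through a complex that holds STAT2 and IRF9 on interferon-stimulated response elements, whereas interferon gamma acts on gamma-activated sites. The induced genes include sensors of viral nucleic acid, enzymes that block translation or degrade RNA, and large GTPases that attack the vacuoles of intracellular parasites. T cells both make interferon gamma and respond to interferons.

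The sequences around the response element core are shown for 6 members whose levels differed between pools, since this element is what links many members to interferon. Each is a stretch of at most 70 bases from the window of 250 bases before the RefSeq start site, on build GRCm38.p6, written 5′ to 3′ along the strand of the gene. Capitals mark 1 match of the core, which is GAAA, any 2 bases and GAAA, or its reverse complement, which is TTTC, any 2 bases and TTTC. The Oas1a stretch holds another match that overlaps the marked one and is left in lower case. The Tgtp1 stretch is chr11:48992284-48992353 on the minus strand, and the Tgtp2 stretch is chr11:49064243-49064312 on the minus strand. The Gbp7 stretch is chr3:142530253-142530322 on the plus strand. The Oas1a stretch is chr5:120907526-120907569 and the Oas3 stretch is chr5:120777695-120777764, both on the minus strand. The Rsad2 stretch is chr12:26456533-26456602 on the minus strand. In GENCODE M21 none of the 6 touched an exon. The Tgtp1 and Tgtp2 stretches lay in introns of the annotated Olfr56 span, the Tgtp1 stretch also inside the annotated span of Tgtp1, and the other 4 were intergenic. Gbp3 also differed between pools and held the core, but its stretch is not shown. Of its 69 bases, 18 lay in an exon.
Tgtp1: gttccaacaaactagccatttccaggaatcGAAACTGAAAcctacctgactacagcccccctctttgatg
Tgtp2: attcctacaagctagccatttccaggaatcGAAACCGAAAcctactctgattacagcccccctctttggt
Gbp7: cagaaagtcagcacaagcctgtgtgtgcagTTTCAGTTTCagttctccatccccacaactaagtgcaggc
Oas1a: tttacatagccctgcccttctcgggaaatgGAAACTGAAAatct
Oas3: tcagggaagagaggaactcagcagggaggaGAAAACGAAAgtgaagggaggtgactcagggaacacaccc
Rsad2: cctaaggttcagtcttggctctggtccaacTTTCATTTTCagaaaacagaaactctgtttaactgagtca

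RefSeq windows were matched for 37 of the 48 members, with 43 windows in all. This core, searched on both strands, was in 17 of the 43 member windows (39.5%), against 2.98% of all 32851 windows of the same length. The gamma-activated site core TTCNNNGAA, also searched on both strands, was in 13 of the 43 member windows (30.2%), against 7.02% of all windows. The 2 motifs overlapped in 1 member window. Counted by gene, the response element core was in 17 of the 37 members with a window (45.9%) and in 936 of all 27025 genes (3.46%). Of the 12 members that passed the threshold in at least 1 comparison, 9 had a window and 7 of these held the response element core. Compared position by position without gaps, the Tgtp1 and Tgtp2 stretches had the same base at 49 of 70 positions, and both carried the core. The Tgtp2 stretch has 1 added base after the core, so this count understates how alike they are. A match is a description of letters and not a shown binding site.

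Values are TPM, transcript abundances scaled by length that the authors estimated with RSEM and that sum to the same total in each library. The 6 libraries listed 12095 to 12396 genes at 1 TPM or more, and TPM keeps no record of depth, which is therefore unknown. Cd4 was at 533.54 and 566.54 TPM in ACT IL21, 267.6 and 236.07 TPM in ACT, and 357.93 and 315.56 TPM in N. By limma on the log2 scale it rose by 0.71 in ACT IL21 against N (adjusted p = 0.0301). It also rose by 1.13 in ACT IL21 against ACT (adjusted p = 0.0103). The Cd4 difference of -0.42 in ACT against N did not pass (adjusted p = 0.158). Of the 2 CD8 T cell genes Cd8a did not exceed 0.36 TPM. The other, Cd8b1, was at 9.8 and 3.41 TPM in ACT IL21, 5.59 and 7.41 TPM in ACT, and 26.68 and 18.73 TPM in N, with differences of -1.76 in ACT IL21 against N (adjusted p = 0.0863) and -1.65 in ACT against N (adjusted p = 0.097). The sort could be read in the RNA: Il21 was at 44.48 and 51.87 TPM in ACT IL21, at 0 and 1.26 TPM in ACT and at 0 in both N libraries. Markers of natural killer and NKT cells summed to 53.98 and 63.04 TPM in ACT IL21, 519.2 and 550.33 TPM in ACT, and 52.86 and 61.15 TPM in N. Of 11 such markers 10 were tested, of which 1 was higher and 2 were lower in ACT IL21 against N, 4 were higher in ACT against N, and 5 were lower in ACT IL21 against ACT. Of these 11 markers, Ncr1, a natural killer cell receptor, did not exceed 1.06 TPM in any library, whereas their sum was highest in ACT. The part of natural killer and NKT cells in the differences described here was not tested. Of other cell types that respond strongly to interferon or make it, the plasmacytoid dendritic cell genes Siglech, Klk1 and Cox6a2 and the monocyte gene Cd14 were listed at 0 in all 6 libraries. The 8 genes of the plasmacytoid dendritic cell list summed to 53.76 and 48.6 TPM in ACT IL21 and 122.35 and 110.66 TPM in ACT. In N they summed to 45.17 and 31.04 TPM. Most of the sum in ACT was from Ccr9, a homing receptor. Of the 4 tested, 1 rose in ACT IL21 against N, 2 rose in ACT against N, and 1 fell in ACT IL21 against ACT. The 11 myeloid and dendritic cell genes summed to 57.74 and 58.13 TPM in ACT IL21, 73.34 and 63.14 TPM in ACT, and 37.2 and 32.3 TPM in N, most of it from Cst3, which rose by 1.01 in ACT against N (adjusted p = 0.0338). The 8 B cell genes summed to 349.94 and 354.46 TPM in ACT IL21, 597.9 and 463.57 TPM in ACT, and 466.59 and 318.15 TPM in N, most of it from Ighm, at 316.56 to 593.64 TPM. Of these, Cd22 was at 13.09 and 17.45 TPM in ACT IL21, 1.62 and 3.68 TPM in ACT, and 0 and 0.07 TPM in N, and rose by 3.96 in ACT IL21 against N (adjusted p = 0.00344), whereas Ms4a1 did not exceed 0.24 TPM and Pax5 was listed at 0 in all libraries. The part of these genes in the members' differences was not tested either.

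The members were expressed in all 3 pools. Over the 48 members TPM summed to 2693.6 and 2607.34 in ACT IL21, 3581.08 and 3211.13 in ACT, and 2833.9 and 2959.57 in N. Both ACT libraries lay above the other 4. By mean TPM over the 6 libraries, 9 members were at 100 TPM or more, 33 at 10 to 100 TPM, 1 at 5 to 10 TPM and 5 under 5 TPM. Samhd1, a nucleotide hydrolase that limits viral DNA synthesis, was the most abundant member, at 545.0 and 535.88 TPM in ACT IL21, 501.25 and 536.56 TPM in ACT, and 491.53 and 516.94 TPM in N. Its differences spanned 0.04 to 0.10 on the log2 scale and none passed the threshold. In pooled cells, fewer expressing cells and less RNA per cell cannot be told apart.

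**Figure D1:**
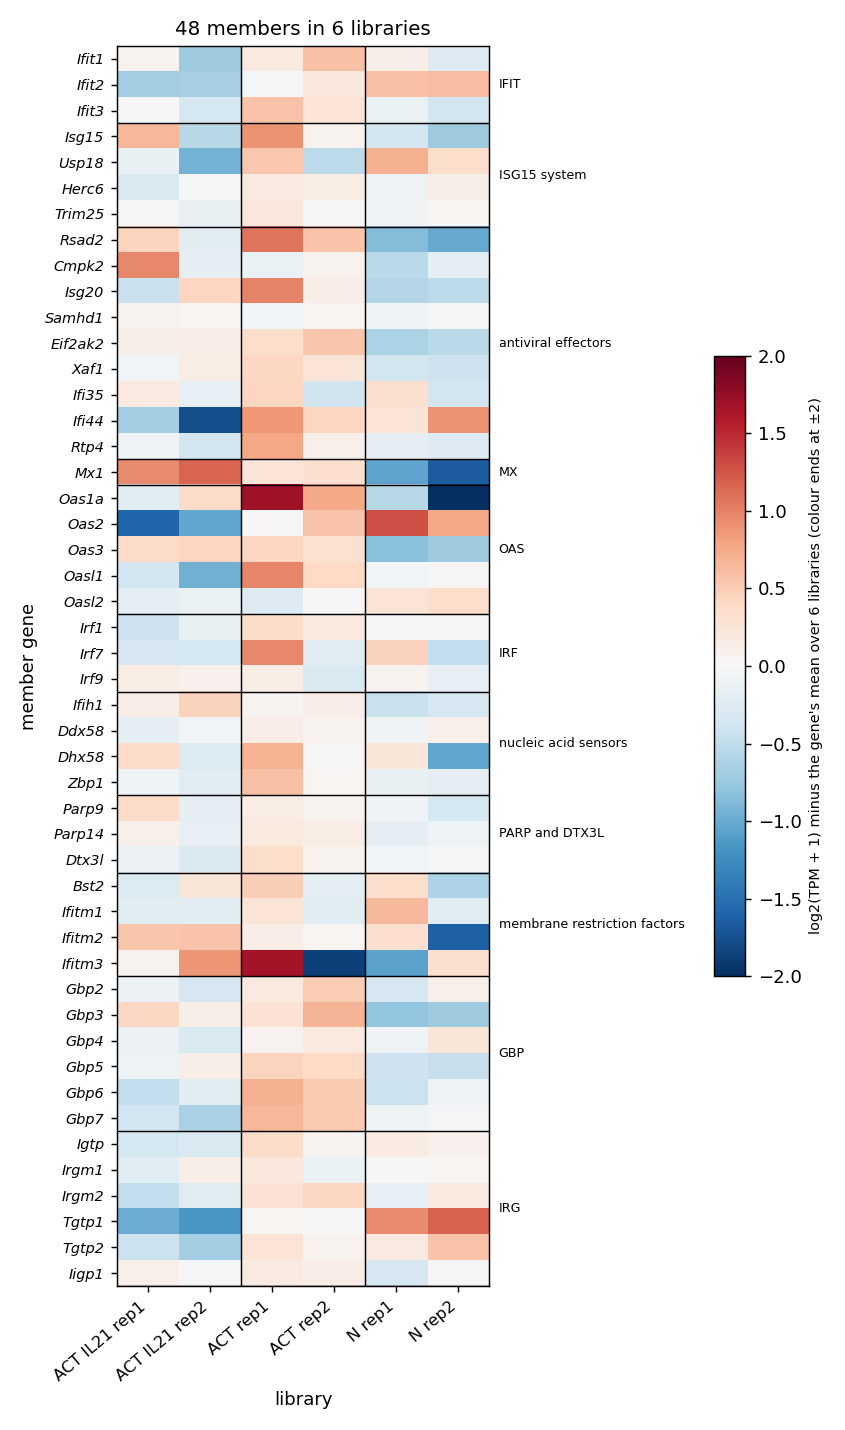
Each row is 1 of the 48 members, grouped by role, and each column 1 library; colour is log2(TPM + 1) minus the mean of that gene over the 6 libraries, with the colour scale ending at ±2. In 19 of the 47 tested rows both ACT columns are warmer than the other 4, while Ifit2, Oas2 and Tgtp1 are coldest in ACT IL21 and warmest in N.

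Among the 3 pools, the members most often reached their highest mean in ACT, which is also the pool with 519.2 and 550.33 TPM of natural killer and NKT cell markers. This held for 33 of the 47 tested members, against 32% of all 13311 genes tested. The highest mean was in ACT IL21 for 8 members (40.2% of all genes) and in N for 6 (27.8% of all genes). Both ACT libraries lay above the other 4 for 19 members, against 9.8% of all genes. No member had both ACT libraries below the other 4, an order seen in 10.4% of all genes. Both ACT IL21 libraries lay below the other 4 for 12 members (7.31% of all genes) and above them for 3, namely Mx1, Ifih1 and Ifitm2 (13.4% of all genes). Both N libraries lay above the other 4 for 4 members, Ifit2, Oas2, Oasl2 and Tgtp1 (10.4% of all genes), and below them for 11 (15.7% of all genes).

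Single members were tested with limma on log2(TPM + 1), with Benjamini-Hochberg adjustment over all 13311 genes and a threshold of 0.05. Fold changes are log2 differences on that scale, so that the change of weakly expressed genes is understated. In ACT IL21 against N, 2 members rose (Mx1 and Oas3) and 4 fell (Ifit2, Oas2, Tgtp1 and Tgtp2), where 5.09% of all genes passed, 3.82% higher and 1.26% lower. The median member difference was 0.02, against 0.10 over all genes, and it was -0.17 when libraries were scaled to the same median, a change that itself shifted the median of all genes by -0.16. At an unadjusted p under 0.05, 8 members were higher and 8 lower, against 12.9% and 5.75% of all genes. In ACT against N, 7 members rose (Rsad2, Eif2ak2, Mx1, Oas1a, Oas3, Gbp3 and Gbp6) and 1 fell (Tgtp1), where 5.58% of all genes passed, 4.15% higher and 1.43% lower. The median member difference was 0.33, against 0.02 over all genes, and at an unadjusted p under 0.05 16 members were higher and 2 lower, against 11.6% and 6.99% of all genes. Between the ICOS+ pools, ACT IL21 against ACT, limma called 0 members higher, with 0 also at an unadjusted p under 0.05 (8.49% of all genes), and 3 members fell (Gbp6, Gbp7 and Tgtp1), where 1.95% of all genes passed, 0.796% higher and 1.15% lower. The median member difference was -0.41, against 0.08 over all genes, and 17 members were lower at an unadjusted p under 0.05, against 6.37% of all genes. The 3 comparisons share libraries pairwise and are not independent of each other.

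The calls rested on few libraries. In ACT IL21 against N, leaving out ACT IL21 replicate 1 or 2 or N replicate 1 or 2 kept 1 of the 6 calls, Tgtp1 in each case, and leaving out either ACT library kept all 6. In ACT against N, leaving out either N library kept 0 of the 8 calls and either ACT IL21 library kept 1, Tgtp1. Leaving out ACT replicate 1 kept 2 calls (Eif2ak2 and Tgtp1), and leaving out ACT replicate 2 kept 2 (Oas3 and Tgtp1). Of the 3 calls in ACT IL21 against ACT, 0 were kept when any 1 of the 6 libraries was left out. Fitting only the 2 pools compared kept 6 of 6 calls in ACT IL21 against N, 1 of 8 in ACT against N (Tgtp1) and 0 of 3 in ACT IL21 against ACT. A fit with no filter on low values kept 4, 3 and 2 of these calls, and a fit with no intensity trend kept 5, 3 and 0.

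**Figure D2:**
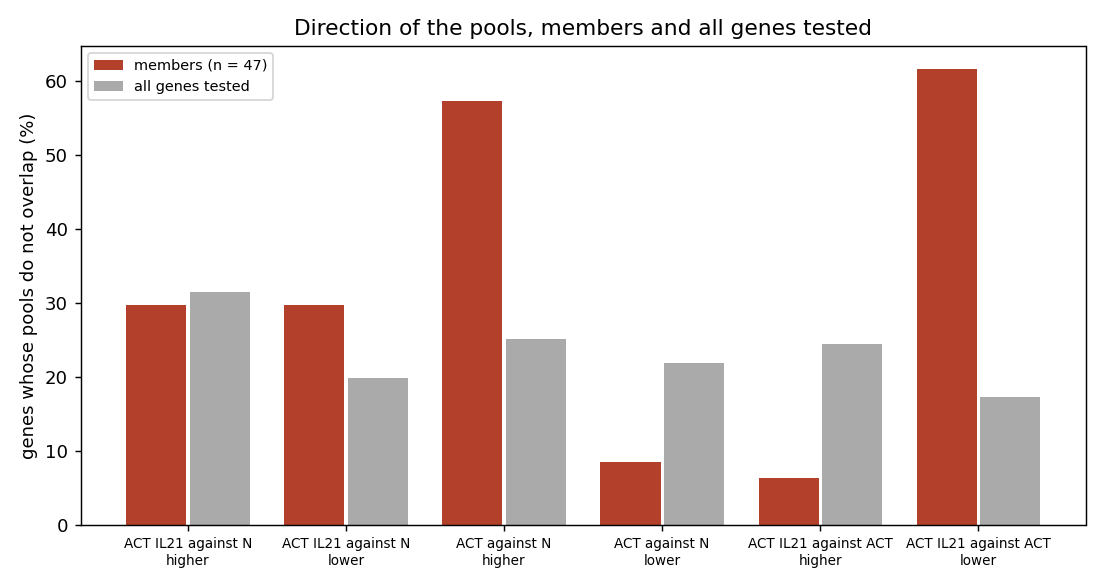
Bars give the percent of the 47 tested members (red) and of all genes tested (grey) whose libraries in 1 pool all lie above or all lie below those of the other pool, for each comparison and direction. The widest gaps are 57.4% of members against 25.2% of all genes higher in ACT against N, and 61.7% against 17.3% lower in ACT IL21 against ACT.

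Members whose pools did not overlap were also counted, from the same values and without a model. Such members were 14 higher (31.5% of all genes) and 14 lower (19.9%) in ACT IL21 against N. In ACT against N 27 were higher (25.2% of all genes) and 4 lower (21.9%). For ACT IL21 against ACT, 3 were higher (24.5% of all genes) and 29 lower (17.3%). The shares near the background were those of the higher members in ACT IL21 against N.

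The IRG GTPases held the member with the smallest p-values in the list. Tgtp1 and Tgtp2 encode near-identical T cell-specific GTPases that load onto parasite vacuoles, and in GENCODE M21 on GRCm38 they lie at chr11:48985327-48994172 and chr11:49057194-49064206 on the minus strand. Tgtp1 was at 43.71 and 38.62 TPM in ACT IL21, 90.68 and 87.63 TPM in ACT, and 171.13 and 201.11 TPM in N. The 3 pools did not overlap, with ACT IL21 lowest, ACT between and N highest. Tgtp1 fell by 2.15 on the log2 scale in ACT IL21 against N (SE 0.17, adjusted p = 0.000515), in ACT against N by 1.05 (SE 0.17, adjusted p = 0.0104), and in ACT IL21 against ACT by 1.10 (SE 0.17, adjusted p = 0.0192). Across all alternatives its adjusted p in ACT IL21 against N did not exceed 0.0318.

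Tgtp2 was at 96.48 and 80.99 TPM in ACT IL21, 158.05 and 137.15 TPM in ACT, and 147.26 and 192.91 TPM in N. The ACT IL21 libraries were lowest, and the ACT and N libraries overlapped. Tgtp2 fell by 0.92 in ACT IL21 against N (SE 0.19, adjusted p = 0.0315), and its differences of -0.19 in ACT against N (95% interval -0.63 to 0.24) and -0.73 in ACT IL21 against ACT (adjusted p = 0.109) did not pass. The 2 genes share most of their sequence: 81.2% of the 50-base stretches of Tgtp1 transcripts and 86.6% of those of Tgtp2 also occurred in another gene, so the division of reads between them is an estimate. Tgtp1 took 31.2% and 32.3% of the sum of both in ACT IL21, 36.5% and 39.0% in ACT, and 53.7% and 51.0% in N. The sum, which does not depend on that division, was 140.19 and 119.61 TPM in ACT IL21, 248.73 and 224.78 TPM in ACT, and 318.39 and 394.02 TPM in N. It fell by 1.44 in ACT IL21 against N (SE 0.16, adjusted p = 0.00308) and by 0.86 in ACT IL21 against ACT (SE 0.16, adjusted p = 0.0453), and its difference of -0.58 in ACT against N did not pass (adjusted p = 0.0943). The call of the sum in ACT IL21 against ACT was lost, at adjusted p = 0.0632, with a pseudocount of 0.1, and without any 1 of the 6 libraries. In ACT IL21 against N the sum lost its call without ACT IL21 replicate 1 (adjusted p = 0.0623), ACT IL21 replicate 2 (adjusted p = 0.0786) or N replicate 2 (adjusted p = 0.0517).

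The other 4 IRG genes passed no threshold. Igtp, a regulatory IRG that keeps effector IRGs off the cell's own membranes, was at 140.06 and 143.85 TPM in ACT IL21, 230.21 and 186.46 TPM in ACT, and 199.85 and 188.81 TPM in N. Its ACT IL21 libraries lay below the other 4, with differences of -0.45 against N (adjusted p = 0.164) and -0.54 against ACT (adjusted p = 0.145). Irgm2, another regulatory IRG, was at 51.53 and 61.84 TPM in ACT IL21, 89.46 and 97.8 TPM in ACT, and 65.03 and 84.13 TPM in N, with the 3 pools apart. The annotated spans of Igtp and Irgm2 overlap on the same strand. Irgm1 and Iigp1 ranged from 33.75 to 76.22 TPM over all libraries.

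The GBP genes, large GTPases that assemble on pathogen membranes, had 2 of 6 members higher in ACT against N (4.15% of all genes) and 2 lower in ACT IL21 against ACT (1.15% of all genes), with none called in ACT IL21 against N. Gbp6 (chr5:105270702-105293698, minus strand) was at 67.74 and 82.0 TPM in ACT IL21, 156.55 and 137.07 TPM in ACT, and 70.79 and 89.32 TPM in N. Both ACT libraries were far above the other 4, which overlapped. Gbp6 rose by 0.87 in ACT against N (SE 0.19, adjusted p = 0.0372) and fell by 0.97 in ACT IL21 against ACT (SE 0.19, adjusted p = 0.0485). Both calls were lost with libraries scaled to the same median, no filter on low values, only the 2 pools fitted or no intensity trend. The first was also lost with quantile normalization, and the second with a pseudocount of 0.1 or 0.5. Of the 50-base stretches of Gbp6 70.7% occurred in another gene, most in Gm43302, so its level is uncertain.

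Gbp7 (chr3:142530342-142550149, plus strand) was at 61.26 and 50.71 TPM in ACT IL21, 127.37 and 115.65 TPM in ACT, and 74.32 and 77.73 TPM in N. The pools did not overlap, with ACT highest and ACT IL21 lowest. Gbp7 fell by 1.11 in ACT IL21 against ACT (SE 0.17, adjusted p = 0.0206), and its difference of 0.67 in ACT against N gave adjusted p = 0.066. Gbp3 (chr3:142560026-142573209, plus strand) was at 25.71 and 20.77 TPM in ACT IL21, 23.39 and 31.11 TPM in ACT, and 10.57 and 11.2 TPM in N. Both N libraries were lowest, and the other pools overlapped. Gbp3 rose by 1.24 in ACT against N (SE 0.27, adjusted p = 0.0395), and its difference of 1.02 in ACT IL21 against N gave adjusted p = 0.0814. The Gbp3 call was lost when libraries were scaled to the same median and with quantile normalization.

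Of the GBP genes that did not pass, Gbp4 was at 120.53 and 106.13 TPM in ACT IL21, 137.66 and 149.65 TPM in ACT, and 124.3 and 155.42 TPM in N. Gbp2 and Gbp5 reached their highest levels in both ACT libraries, at 87.93 and 110.21 TPM and at 19.61 and 18.97 TPM. The sum of Gbp2 to Gbp7 was 359.12 and 335.69 TPM in ACT IL21, 552.51 and 562.66 TPM in ACT, and 351.22 and 426.37 TPM in N. ACT stood above the other pools in this sum, with differences of 0.53 in ACT against N (adjusted p = 0.0855) and -0.68 in ACT IL21 against ACT (adjusted p = 0.066), neither past the threshold.

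**Figure D3:**
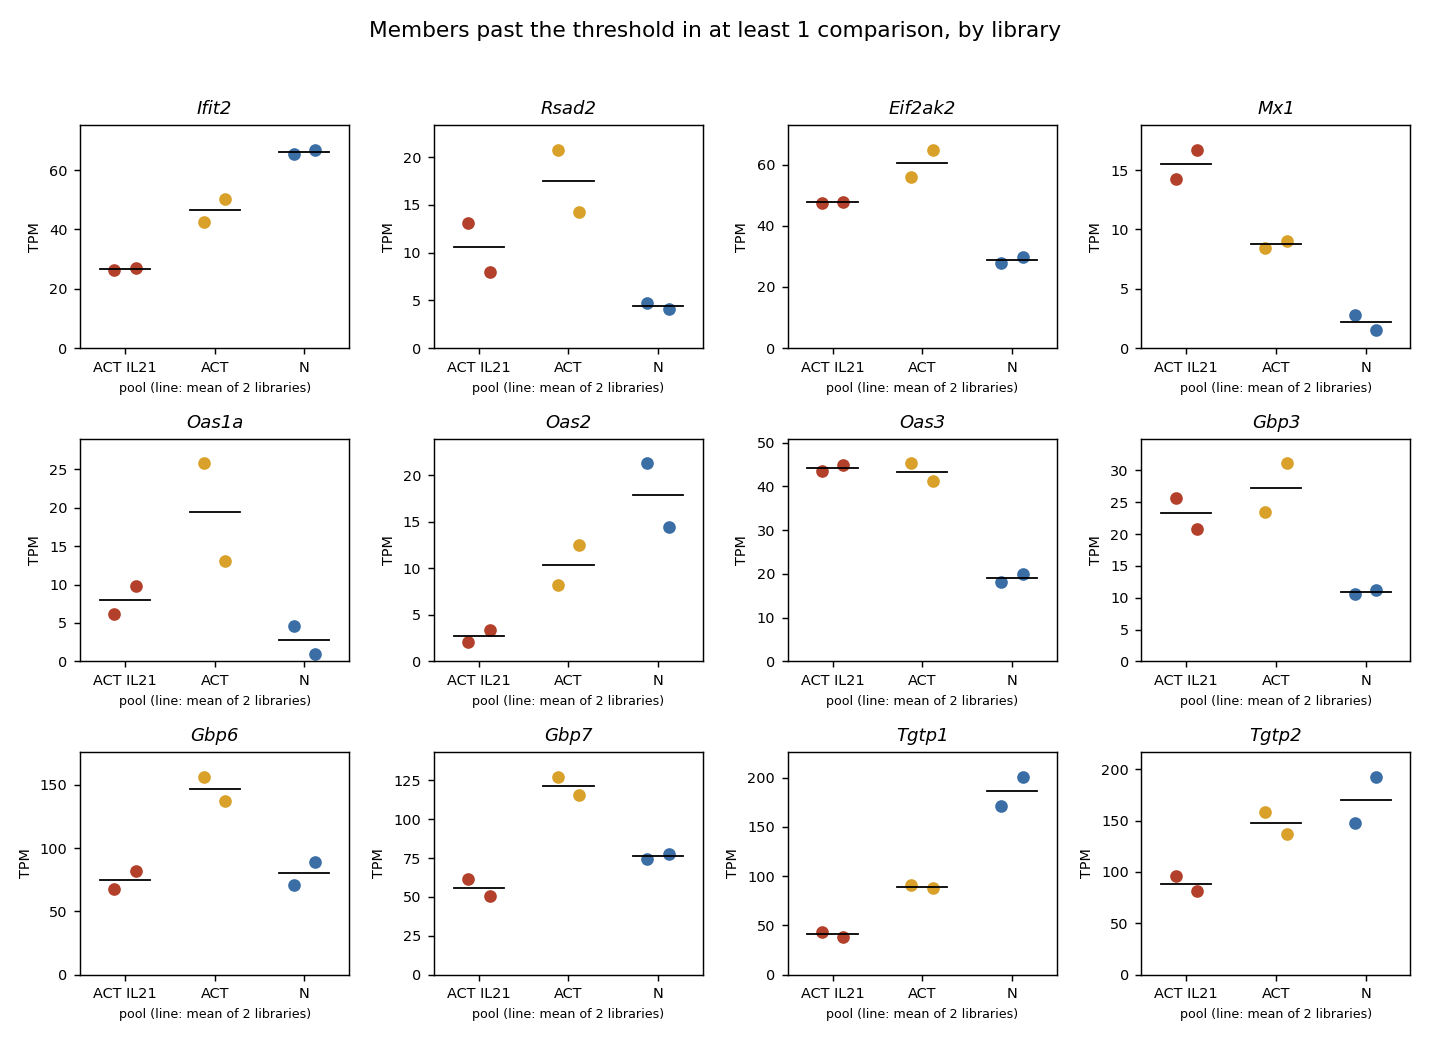
Each panel gives the TPM of 1 of the 12 members past the threshold in at least 1 comparison; points are libraries, lines are the means of the 2 libraries of a pool, and each vertical axis starts at 0. Tgtp1, Ifit2 and Oas2 are lowest in ACT IL21 and highest in N, Mx1 has the opposite order, Oas3 and Gbp3 are lowest in N, and Gbp6 and Gbp7 are highest in ACT.

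The IFIT genes encode proteins that bind viral RNA and block its translation. Ifit2 (chr19:34550694-34576419, plus strand) was at 26.32 and 26.97 TPM in ACT IL21, 42.47 and 50.3 TPM in ACT, and 65.32 and 66.79 TPM in N. The 3 pools were apart, and the libraries within ACT IL21 and within N lay close together. Ifit2 fell by 1.28 in ACT IL21 against N (SE 0.19, adjusted p = 0.00853), while -0.51 in ACT against N (adjusted p = 0.193) and -0.77 in ACT IL21 against ACT (adjusted p = 0.0937) did not pass. Its neighbours on chromosome 19 had another order. Ifit1 was at 43.98 and 25.17 TPM in ACT IL21, 48.4 and 63.87 TPM in ACT, and 45.51 and 35.01 TPM in N, and Ifit3 at 23.33 and 18.0 TPM in ACT IL21, 35.28 and 28.55 TPM in ACT, and 21.16 and 17.85 TPM in N. Both were highest in the ACT libraries, with the other pools overlapping, and passed no threshold. Of the stretches of Ifit3 51.2% also occurred in Ifit3b.

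The OAS genes encode synthetases of 2-5A, the messenger that activates RNase L, and their members moved in different directions. Oas2 (chr5:120730333-120749853, minus strand) was at 2.04 and 3.41 TPM in ACT IL21, 8.23 and 12.46 TPM in ACT, and 21.27 and 14.41 TPM in N. The 3 pools were apart, with ACT IL21 lowest. Oas2 fell by 2.34 in ACT IL21 against N (SE 0.40, adjusted p = 0.0164), and -1.61 in ACT IL21 against ACT gave adjusted p = 0.102. Oas3 (chr5:120753098-120777661, minus strand), the next gene on that strand, was at 43.53 and 44.86 TPM in ACT IL21, 45.29 and 41.26 TPM in ACT, and 18.22 and 19.9 TPM in N. Both ICOS+ pools were above N and overlapped each other. Oas3 rose by 1.17 in ACT IL21 against N (SE 0.20, adjusted p = 0.0156) and by 1.14 in ACT against N (SE 0.20, adjusted p = 0.0158), and its difference in ACT IL21 against ACT was 0.03 (95% interval -0.43 to 0.49).

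Oas1a (chr5:120896256-120907521, minus strand) was at 6.11 and 9.8 TPM in ACT IL21, 25.79 and 13.09 TPM in ACT, and 4.66 and 0.99 TPM in N. The pools did not overlap, but the libraries of ACT and of N differed widely within the pool. Oas1a rose by 2.53 in ACT against N (SE 0.58, adjusted p = 0.0465), a call lost with a pseudocount of 0.1 or 0.5, and 57.6% of its stretches also occurred in Oas1g. Oasl1 and Oasl2 encode OAS-like proteins and passed no threshold. Oasl1 was at 2.11 and 1.05 TPM in ACT IL21, 6.91 and 4.27 TPM in ACT, and 2.85 and 3.06 TPM in N. Oasl2 was at 9.98 and 10.48 TPM in ACT IL21, 9.54 and 11.51 TPM in ACT, and 14.04 and 15.14 TPM in N. The sum of the 5 OAS genes differed by 0.63 in ACT against N (adjusted p = 0.0864), 0.22 in ACT IL21 against N and -0.41 in ACT IL21 against ACT, none past the threshold.

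Mx1 (chr16:97447035-97462907, minus strand) encodes a dynamin-like GTPase that restricts influenza virus, and C57BL/6 mice, as most laboratory strains, carry an allele that gives no functional protein. It was at 14.28 and 16.7 TPM in ACT IL21, 8.47 and 9.02 TPM in ACT, and 2.82 and 1.49 TPM in N. The 3 pools were apart, in the order opposite to that of Tgtp1. Mx1 rose by 2.41 in ACT IL21 against N (SE 0.38, adjusted p = 0.0111) and by 1.66 in ACT against N (SE 0.38, adjusted p = 0.0465), and 0.76 in ACT IL21 against ACT did not pass (adjusted p = 0.409).

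Of the 9 other antiviral effectors, 2 rose in ACT against N (4.15% of all genes) and none passed elsewhere. Rsad2 (chr12:26442746-26456452, minus strand) encodes viperin, which makes a chain-terminating nucleotide, and was at 13.15 and 7.98 TPM in ACT IL21, 20.76 and 14.3 TPM in ACT, and 4.68 and 4.14 TPM in N. The pools did not overlap, with ACT highest and N lowest. Rsad2 rose by 1.76 in ACT against N (SE 0.38, adjusted p = 0.0371), and 1.06 in ACT IL21 against N gave adjusted p = 0.179. Eif2ak2 (chr17:78852564-78882573, minus strand) encodes PKR, a kinase that stops translation on double-stranded RNA. It was at 47.48 and 47.79 TPM in ACT IL21, 56.14 and 64.82 TPM in ACT, and 27.95 and 29.9 TPM in N. Its 3 pools were also apart in that order. Eif2ak2 rose by 1.04 in ACT against N (SE 0.19, adjusted p = 0.0176), and 0.70 in ACT IL21 against N gave adjusted p = 0.0824.

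Xaf1, a partner of the apoptosis inhibitor XIAP, was at 53.54 and 61.69 TPM in ACT IL21, 74.38 and 66.62 TPM in ACT, and 42.78 and 41.32 TPM in N. Its pools were in the order of Rsad2 and Eif2ak2, and 0.73 in ACT against N gave adjusted p = 0.0575. The RNA exonuclease gene Isg20 was at 41.05 and 75.82 TPM in ACT IL21, 112.49 and 61.55 TPM in ACT, and 36.96 and 38.8 TPM in N, and its ICOS+ pools overlapped. Ifi44 had the lowest uncalled differences of all members, -1.80 in ACT IL21 against N and -1.87 in ACT IL21 against ACT, at 1.3 and 0.09 TPM in ACT IL21, 5.77 and 3.97 TPM in ACT, and 3.43 and 5.88 TPM in N. Cmpk2, Ifi35 and Rtp4 passed no threshold and ranged from 7.49 to 84.33 TPM over all libraries.

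**Figure D4:**
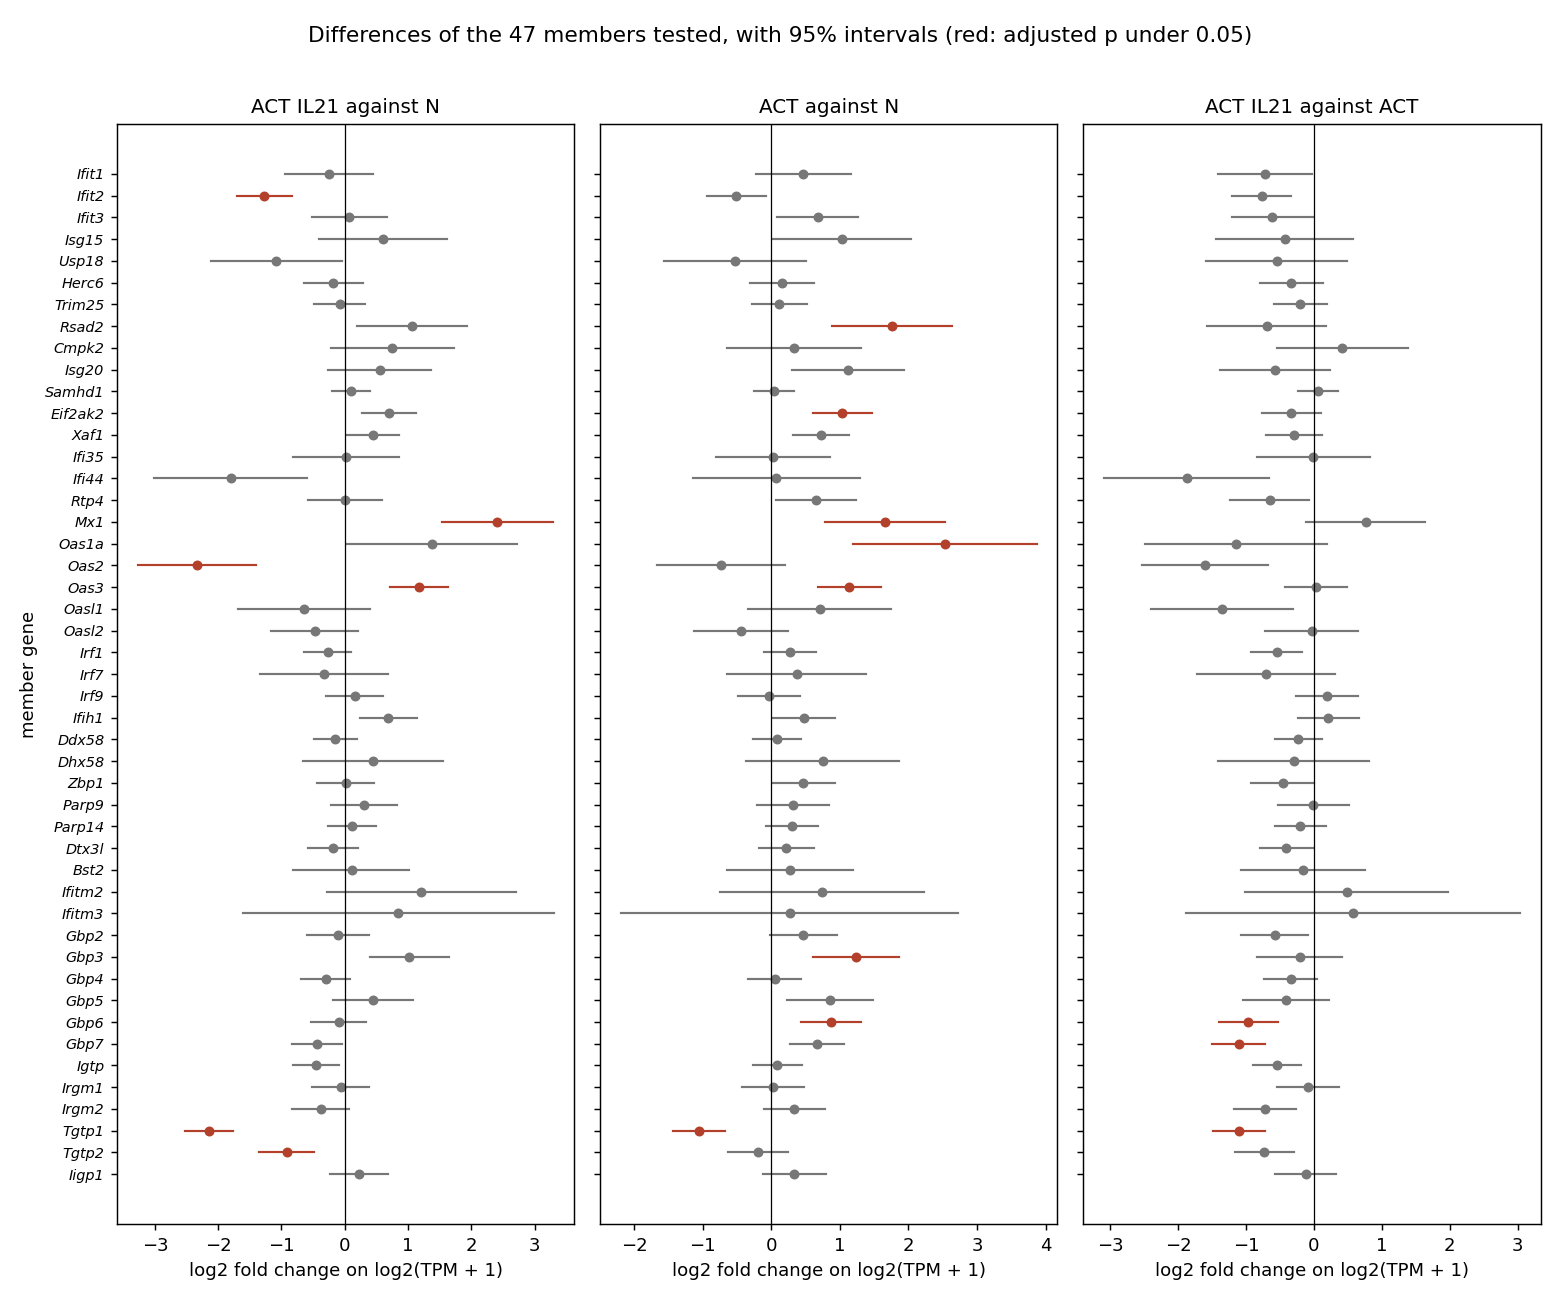
Points are log2 fold changes on log2(TPM + 1) and bars their 95% intervals for the 47 tested members in 3 comparisons; red marks adjusted p under 0.05. Most points lie right of 0 in ACT against N (40 of 47) and left of 0 in ACT IL21 against ACT (39 of 47), and fewer are red.

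The ISG15 system conjugates the ubiquitin-like ISG15 to proteins, and none of its 4 members passed a threshold. Isg15 itself was at 41.42 and 17.28 TPM in ACT IL21, 48.95 and 27.15 TPM in ACT, and 19.5 and 15.33 TPM in N. The libraries of a pool differed so far that the ACT IL21 libraries overlapped both other pools. Usp18, which removes ISG15 and damps type I interferon signalling, was at 10.54 and 5.66 TPM in ACT IL21, 17.54 and 7.94 TPM in ACT, and 19.98 and 15.33 TPM in N. Herc6, the main ISG15 ligase of mice, and Trim25, a ubiquitin ligase, ranged from 31.55 to 83.27 TPM.

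None of the 3 interferon regulatory factors, 4 sensors, 3 PARP and DTX3L genes or 3 tested membrane restriction factors passed a threshold. Irf1, a transcription factor induced by interferon gamma, was at 81.02 and 97.74 TPM in ACT IL21, 138.76 and 123.63 TPM in ACT, and 106.21 and 109.14 TPM in N, with the 3 pools apart and -0.55 in ACT IL21 against ACT (adjusted p = 0.162). Irf7, which drives type I interferon genes, was at 21.42 and 21.09 TPM in ACT IL21, 54.0 and 22.87 TPM in ACT, and 37.72 and 19.19 TPM in N, so that the spread within ACT and within N exceeded that between pools. Irf9 ranged from 68.15 to 93.79 TPM.

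Among the sensors, Ifih1, which encodes the RNA sensor MDA5, was at 48.92 and 61.33 TPM in ACT IL21, 46.0 and 48.5 TPM in ACT, and 32.38 and 34.83 TPM in N, the only sensor with N below both other pools without overlap and ACT IL21 above both. Its difference of 0.69 in ACT IL21 against N gave adjusted p = 0.101. Zbp1, a sensor of Z-form nucleic acid, was at 120.48 and 109.11 TPM in ACT IL21, 190.63 and 130.96 TPM in ACT, and 114.97 and 111.88 TPM in N. Ddx58, which encodes RIG-I, ranged from 107.82 to 135.42 TPM, and Dhx58 and Parp9 from 6.94 to 81.89 TPM. Parp14 and Dtx3l were highest in both ACT libraries, at 103.3 and 100.55 TPM and at 109.05 and 89.89 TPM. Bst2, which tethers budding virus, ranged from 14.7 to 32.6 TPM, and Ifitm2 and Ifitm3, which hinder viral entry, did not exceed 10.66 TPM.

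Some members varied more between replicates than between pools. In ACT, 34 of the 47 tested members were higher in replicate 1 than in replicate 2, against 51.5% of all genes, and the median difference was 0.16 on the log2 scale, against 0.03 over all genes. In all 3 pools replicate 1 was the higher for 11 members (14.5% of all genes), among them Isg15, Usp18, Rsad2, Irf7 and Zbp1, and the lower for 5 (12.8% of all genes). Erythroid markers, of which 6 of 8 were matched, also summed higher in replicate 1 of each pool, to 149.9 and 43.07 TPM in ACT IL21, 54.68 and 34.71 TPM in ACT, and 86.33 and 28.02 TPM in N. The part of these replicate differences in the results was not tested.

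The pathway around the members was read from a further list of 104 genes, of which 90 were tested. Of these, 11 rose and 5 fell in ACT IL21 against N, where 3.82% and 1.26% of all genes did. In ACT against N 8 rose and 2 fell (4.15% and 1.43% of all genes), and in ACT IL21 against ACT 1 rose and 3 fell (0.796% and 1.15% of all genes). Their median difference was 0.24 in ACT IL21 against N, 0.30 in ACT against N and -0.08 in ACT IL21 against ACT, against 0.10, 0.02 and 0.08 over all genes. Of 9 interferon genes listed, 7 were at 0 in all libraries and Ifnk did not exceed 1.67 TPM. Ifng, which encodes interferon gamma, was at 65.53 and 94.58 TPM in ACT IL21, 126.3 and 168.43 TPM in ACT, and 0.58 and 4.83 TPM in N. Both ICOS+ pools were far above N, and Ifng rose by 4.72 in ACT IL21 against N (SE 0.54, adjusted p = 0.00316) and by 5.60 in ACT against N (SE 0.54, adjusted p = 0.00111). Without ACT IL21 replicate 1 or 2 the first of these calls was lost, at an adjusted p of up to 0.0924.

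The receptor chains moved in different directions. Ifngr2, the signalling chain of the interferon gamma receptor, was at 3.05 and 4.25 TPM in ACT IL21, 8.5 and 6.9 TPM in ACT, and 27.96 and 24.41 TPM in N. N was highest, and Ifngr2 fell by 2.56 in ACT IL21 against N (SE 0.34, adjusted p = 0.0054) and by 1.65 in ACT against N (SE 0.34, adjusted p = 0.0302). Ifngr1, the binding chain, was at 86.67 and 72.4 TPM in ACT IL21, 176.5 and 152.84 TPM in ACT, and 110.63 and 122.51 TPM in N, the same pool order as Gbp7. It fell by 1.04 in ACT IL21 against ACT (SE 0.17, adjusted p = 0.0239). Ifnar2, a chain of the type I receptor, was at 111.51 and 153.29 TPM in ACT IL21, 119.16 and 123.69 TPM in ACT, and 62.96 and 63.72 TPM in N. It rose by 1.03 in ACT IL21 against N (SE 0.18, adjusted p = 0.0191) and by 0.93 in ACT against N (SE 0.18, adjusted p = 0.0272), calls that were lost when libraries were scaled to the same median. Each Ifnar2 call was lost without any 1 library of its pools. The Ifngr2 call in ACT IL21 against N was lost without any 1 library of these pools, and those of Ifngr2 in ACT against N and of Ifngr1 in ACT IL21 against ACT without any 1 of the 6. Ifnar1, the partner chain of Ifnar2, ranged from 70.62 to 105.95 TPM and did not pass.

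Downstream, the kinase gene Jak2 was at 158.51 and 153.45 TPM in ACT IL21, 205.53 and 232.88 TPM in ACT, and 79.26 and 87.67 TPM in N. It rose by 0.90 in ACT IL21 against N (SE 0.15, adjusted p = 0.0138) and by 1.38 in ACT against N (SE 0.15, adjusted p = 0.00172). The Jak2 call in ACT against N held with each library left out, and that in ACT IL21 against N was lost without any 1 library of those pools and when libraries were scaled to the same median. Stat2, a transducer of type I interferon signals, ranged from 25.59 to 42.43 TPM and did not pass. Stat4 was listed with the transducers, and Irf4 and Irf2bp2 under other interferon regulatory factors. These 3 genes rose in both ICOS+ pools against N, Irf4 by 2.54 in ACT IL21 (adjusted p = 0.00292) and 2.29 in ACT (adjusted p = 0.00347). Whether interferon signalling had a part in these rises was not tested. Ptpn11, which encodes the phosphatase SHP2, was at 81.31 and 98.61 TPM in ACT IL21, 43.39 and 38.12 TPM in ACT, and 28.45 and 26.04 TPM in N, and it was the 1 listed gene that rose in ACT IL21 against ACT (by 1.12, SE 0.20, adjusted p = 0.0305), a call lost without any 1 of the 6 libraries. The Stat4 call in ACT against N was lost without any 1 of the 6 libraries, with only the 2 pools fitted and when libraries were scaled to the same median. In ACT IL21 against N the Stat4 and Irf2bp2 calls were lost without any 1 library of these pools, that of Stat4 also when scaled to the same median, and in ACT against N the Irf2bp2 call was lost without N replicate 1. The Irf4 calls were lost without N replicate 1, and that in ACT IL21 against N also without ACT IL21 replicate 1 or 2.

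**Figure D5:**
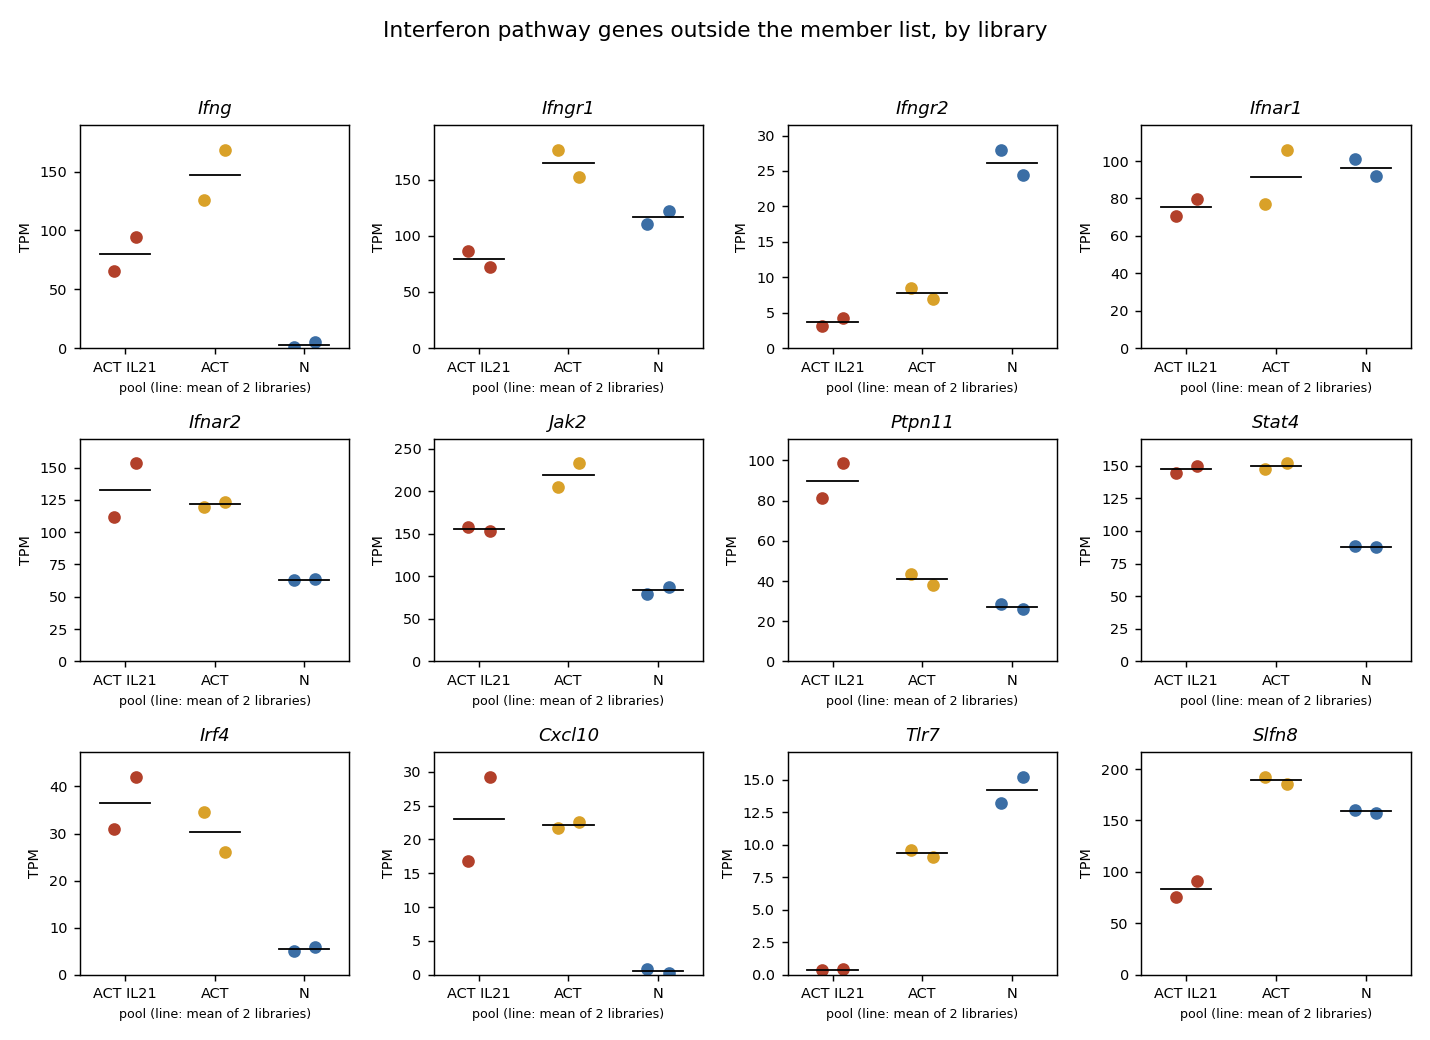
Each panel gives the TPM of 1 gene of the further pathway list, outside the member list. Points are libraries, lines are the means of the 2 libraries of a pool, and each vertical axis starts at 0. Ifng, Cxcl10, Irf4, Jak2, Stat4 and Ifnar2 are low in N, Ifngr2 is high in N, and Tlr7 is near 0 in ACT IL21, at 0.35 and 0.42 TPM.

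Among other targets, Cxcl10, an interferon-induced chemokine, was at 16.77 and 29.29 TPM in ACT IL21, 21.64 and 22.53 TPM in ACT, and 0.87 and 0.3 TPM in N. It rose by 3.90 in ACT IL21 against N (SE 0.40, adjusted p = 0.00197), a call lost without ACT IL21 replicate 2, and by 3.89 in ACT against N (SE 0.40, adjusted p = 0.00144). Tlr7, a sensor of single-stranded RNA, was listed with the sensing adaptors and not with these targets. It was at 0.35 and 0.42 TPM in ACT IL21, 9.58 and 9.09 TPM in ACT, and 13.24 and 15.24 TPM in N. It fell by 3.46 in ACT IL21 against N (SE 0.37, adjusted p = 0.00234) and by 2.90 in ACT IL21 against ACT (SE 0.37, adjusted p = 0.011). Slfn8, again among the other targets, fell in the same comparisons, by 0.93 (SE 0.15, adjusted p = 0.0134) and 1.19 (SE 0.15, adjusted p = 0.0116). Phf11b, Ifi27l2a and Mnda rose and Ifit1bl1 (in the table under its older symbol Gm14446) and Gbp11 fell in ACT IL21 against N, and in ACT against N Phf11b rose and Slfn1 fell. The calls of Phf11b, Mnda and Gbp11 in ACT IL21 against N were lost without any 1 library of these pools, that of Gbp11 also with a pseudocount of 0.1 or 0.5. With no filter on low values the calls of Gbp11, Mnda, Ifi27l2a, Ifit1bl1 and Slfn1 were lost. The Ifi27l2a call was lost without ACT IL21 replicate 1 or 2 or N replicate 2, and those of Ifit1bl1 in ACT IL21 against N and Slfn1 in ACT against N without any 1 of the 6 libraries. In ACT against N the Phf11b call was lost without N replicate 1 or 2. The Tlr7 and Slfn8 calls in ACT IL21 against N were lost without N replicate 1 or 2, that of Slfn8 also without ACT IL21 replicate 1 or 2, and those in ACT IL21 against ACT without any 1 of the 6 libraries.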

How the data were processed

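RNA of 6 sorted cell samples was extracted with Qiagen RNeasy kits, enriched for poly-A and amplified as cDNA by NuGEN Ovation chemistry, per the labels' protocols, then sequenced by MiSeq, per the design text. The authors deposited gene-level TPM in 1 table. Per the submitters' processing notes, Trimmomatic, Bowtie and RSEM were run with build GRCm38, without stated versions. Read length, annotation release and strandedness: not given in the sources used here. Reads shared by similar copies are apportioned by estimation in RSEM, and because TPM has a fixed total, a rise in abundant transcripts lowers the others. Depth is unknown, so no counting interval is given.

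The 139 entries with a repeated symbol among 38355 were summed into their symbol. Tests used limma (version 3.58.1, under R 4.3.3) on log2(TPM + 1) with a filter of at least 1 TPM in at least 2 of 6 libraries (13311 genes), 1 model of all 6 libraries with a term for the pool, an intensity trend (3 residual and 4.841 prior degrees of freedom), two-sided tests and Benjamini-Hochberg adjustment within each comparison at 0.05. Errors are standard errors and 95% intervals of the log2 differences. The fit was tested on simulated data. Family sums replaced similar copies by their sum in the same fit. Shared stretches are 50-base runs of GENCODE M21 transcripts found in more than 1 gene, and motifs were searched in RefSeq promoters.

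The members and lists were chosen with earlier results of these data known, so counts over them are descriptions. Every member past the threshold is named with its library values; of the others, the 2 most abundant and the 2 with the smallest F test p of a role are named, and those named to account for the rest were chosen after their values were seen. A few listed genes are counted but not reported here by name. Alternatives changed the pseudocount, filter, scaling, replicate block, trend, the pools fitted and the libraries left out.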

Additional observations from a re-analysis of the deposited data

How the results depend on the processing

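Limits: with 2 libraries a pool, leaving 1 out leaves a pool with 1 library, which is assumed to vary like the others. Members higher in ACT IL21 against N numbered 2 (0 to 2 with a library left out), members lower 4 (1 to 4), genes called 677 (75 to 728) and the median member difference 0.02 (-0.04 to 0.11). In ACT against N these were 7 (0 to 1), 1 (0 to 1), 743 (205 to 526) and 0.33 (0.29 to 0.37), and in ACT IL21 against ACT 0 (0 to 0), 3 (0 to 0), 259 (0 to 81) and -0.41 (-0.53 to -0.21). Members past the F test numbered 9 (1 to 6). The Tgtp sum spanned -1.60 to -1.29 in ACT IL21 against N and -0.98 to -0.75 in ACT IL21 against ACT. With no filter on low values, lower members were 2 and called genes 410 in ACT IL21 against N, higher members 2 and called genes 469 in ACT against N, called genes 124 in ACT IL21 against ACT, and F test members 5. Scaled to the same median, the median member difference was -0.17, 0.25 and -0.50 in ACT IL21 against N, ACT against N and ACT IL21 against ACT, and with quantile normalization -0.13 and 0.24 in the comparisons with N, with 4 higher members in ACT against N. With only the 2 pools compared, ACT against N had 0 higher members and 417 called genes, and ACT IL21 against ACT 0 lower members and 92 called genes. With no intensity trend, ACT against N had 3 higher and 0 lower members, ACT IL21 against ACT 0 lower, and the F test 3. The call of the Tgtp sum in ACT IL21 against ACT was lost at -0.87 (pseudocount 0.1), -0.86 (no filter, 2 pools only, no trend) and -0.96 (same median). Why these values and calls changed was not tested. Of all genes called in ACT IL21 against N, 75.2% were higher, and 64.2% when scaled to the same median. No value changed direction past the threshold.

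Over all genes, same-numbered libraries deviated together with r of 0.001 (ACT IL21 and ACT), -0.004 (ACT IL21 and N) and 0.21 (ACT and N). What a replicate number stands for is not stated, so the numbers were not taken as pairs. With a replicate block the genes called numbered 732, 784 and 284 and the members higher and lower 2 and 4, 6 and 1, and 0 and 3, in ACT IL21 against N, ACT against N and ACT IL21 against ACT, with Mx1 in ACT against N and Gbp11 in ACT IL21 against N not called. Gbp11 and Mnda have no value with the filter of a mean of at least 5 TPM.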
